A study of Homo sapiens with 6 samples.

Results

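The proteasome subunit genes of HSC-4 cells were the 42 protein-coding genes, among the 58884 genes counted, whose symbols join PSMA, PSMB, PSMC, PSMD, PSME or PSMF to a number. *PSMB8* and *PSMB9*, immune forms of core subunits, fit this pattern and were left out by the rule. The rule used symbols and no measured value, but the genes were chosen with earlier results of these data known. 17 of the genes (*PSMA*, *PSMB*) encode the core particle and 25 (*PSMC*, *PSMD*, *PSME*, *PSMF*) encode parts of the caps that sit on it or proteins that bind it. RNA was sequenced in 6 samples of HSC-4, a long-used human cell line from a squamous carcinoma of the mouth. 3 received 50 µM DAPT, a γ-secretase inhibitor that blocks the release of the active Notch fragment, for 24 h, and 3 were controls. The labels name the treatment and the controls, while dose, time and the controls' vehicle, DMSO, come from the paper. The control count columns carry the letters GM, which no source explains, so, had they been kept in plain medium, vehicle and DAPT effects cannot be told apart. The study used 1 cell line, and the labels do not say whether the replicates were separate cultures, so the p-values may measure technical spread only.

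The proteasome degrades proteins that carry ubiquitin chains. Its core particle is a barrel of stacked rings, with alpha subunits forming the outer rings that gate the entrance and beta subunits forming the inner rings, some of which cut peptide bonds. The regulatory particle, or 19S cap, binds ubiquitin, removes it, unfolds the substrate with a ring of ATPases and feeds it into the core, while other activators open the gate without ATP. Cells are known to raise subunit genes together through the transcription factor NRF1, encoded by *NFE2L1*, which reads antioxidant response elements in their promoters.

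The libraries held between 12276313 and 16317672 counts, of which 0.559% to 0.616% fell on the 42 genes. The Notch target genes *HES1*, *HES4*, *HEY1* and *NRARP* all fell with DAPT, with log2 fold changes between -1.98 and -0.77. All 10 squamous epithelial marker genes were tested, and 8 fell while 2, *CDH1* and *EPCAM*, rose, both by 0.27 on the log2 scale. The summed level of the 10 was between 5836 and 6034 CPM in control, where CPM are counts scaled to a common library size. It was between 3667 and 3908 CPM in DAPT libraries. *KRT5* held the largest share of this sum, at a mean of 2701 CPM in control and 1315 CPM in DAPT libraries. Among the 10 markers *KRT14*, a basal keratin, was at only 3.17 ± 0.319 CPM (SD, n = 3) in control. Control replicate 1 stood apart on the second principal component and carried fibroblast transcripts, with *COL1A2* at 215 CPM against 2.02 and 0.663 in the other controls. The 7 fibroblast markers summed to between 57.2 and 566 CPM in control and between 50.0 and 55.3 in DAPT libraries, none of them at 0 in all libraries. Outside control replicate 1 most of this sum was *COL1A1*, at 48.3 to 54.0 CPM. In those libraries *COL3A1*, *PDGFRB*, *DCN* and *THY1* were each at 0.433 CPM or less. Leukocyte markers summed to 8.92 to 13.0 CPM over all libraries, with 2 of 6 at 0 in each library, and endothelial markers to at most 1.37 CPM, with 1 of 4 at 0. Most of the leukocyte sum was *CD14*, at 8.77 to 12.8 CPM, while *PTPRC*, *CD68* and *LYZ* were each at 0.26 CPM or less. The part of these marker differences in the results below was not tested, and the counts of members that fell or rose are therefore also given without control replicate 1. In bulk RNA, fewer cells of a type cannot be told apart from less RNA per cell.

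With DAPT, 7 of 8 tested beta ring genes and 3 of 7 tested alpha ring genes of the core particle fell, the former including all 3 that encode the constitutive proteases. 40 of the 42 members had enough reads to be tested, and 17 fell, 1 rose and 22 did not pass the threshold of 0.05 on the Benjamini-Hochberg adjusted p of edgeR's quasi-likelihood test. Over all 15001 genes tested the same call was made downward for 18% and upward for 17.2%. In the core particle, 10 of 15 tested genes fell and none rose, and in the caps 7 of 25 fell and 1 rose. Without control replicate 1 the counts were 10 and 0 in the core and 8 and 1 in the caps. In that fit 2892 of 15162 tested genes fell and 2726 rose. The median log2 fold change was -0.26 in the core and -0.04 in the caps, against 0.01 over all tested genes. Among the cap genes, the 17 subunits of the 19S particle itself had a median of -0.12, and 7 of them fell. The median of all 25 cap genes was 0.01 when libraries were scaled by their total counts alone. With that scaling 9 core and 6 cap genes fell, while 2156 genes fell and 3445 rose in all, against 2707 and 2574. The changes were small, since log2 fold changes ran from -0.39 to 0.24 and no member changed by 1.5-fold.

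**Figure D1:**
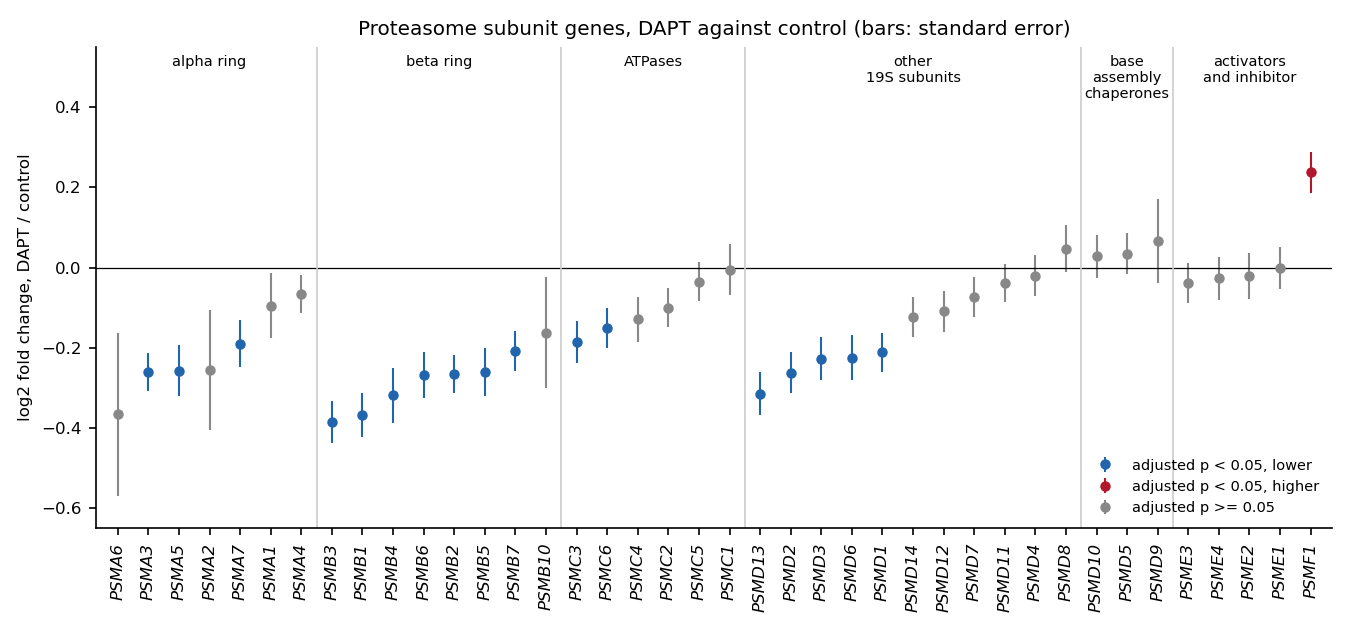
The log2 fold change of each tested proteasome gene, DAPT over control, with its standard error, ordered within role groups and coloured by the call at an adjusted p of 0.05. All 15 core genes lie below 0, and *PSMF1* at the right end is the single gene called higher, at 0.24.

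Every DAPT library lay below every control library for 24 members and above for 3, while 13 overlapped. Across all tested genes, 22.7% lay wholly below and 23.6% wholly above. In the core particle 12 of 15 tested genes lay wholly below, and in the caps 12 of 25 did. The members are abundant transcripts, with a median level of 138 CPM against 25.5 CPM over all tested genes. Their median standard error of the log2 fold change was 0.053, against 0.084 over all tested genes.

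Summed over its genes, the core particle stood at 2611, 2624 and 2550 CPM in the control libraries and at 2108, 2249 and 2263 CPM in the DAPT libraries. The groups did not overlap, and DAPT replicate 1 was the lowest library. The mean differed by -14.96% with DAPT. The caps stood at 3648, 3668 and 3681 CPM in control and at 3441, 3466 and 3485 CPM in DAPT libraries, a difference of -5.50%. By part, the difference was -7.04% for the ATPases and -9.84% for the other 19S subunits. It was 2.43% for the base assembly chaperones and 2.24% for the activators and inhibitor. The log2 ratio of the cap means was -0.08, and -0.034 with scaling by total counts alone. The ratio of core to cap RNA was 0.708 ± 0.0133 (SD, n = 3) in control and 0.637 ± 0.0210 in DAPT libraries. These sums describe the libraries and were not tested.

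**Figure D2:**
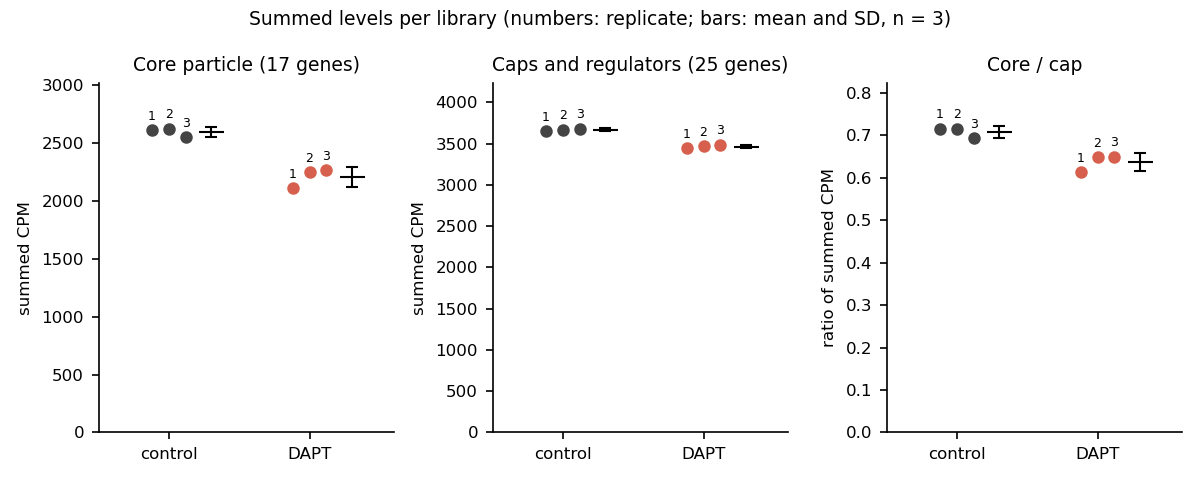
Summed CPM of the core particle genes (left) and the cap genes (middle) and their ratio (right) in each library, with the mean and SD of 3 libraries per group on axes from 0. In all panels the 3 DAPT libraries lie below the 3 control libraries, and DAPT replicate 1 is the lowest.

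The core genes were lowest in DAPT replicate 1. Relative to the control mean, the median log2 deviation of the core genes was -0.37 in this library and -0.21 in each of the others. In the caps it was -0.10, -0.06 and -0.07. 9 of 15 core genes were lowest in DAPT replicate 1 among the DAPT libraries, while 35.0% of all tested genes were. The same library stood apart from the other DAPT libraries on the third principal component, which held 10.9% of the variance. Without it, 9 core genes fell and the core median was -0.21, and 6 cap genes fell. In that fit 2366 of 15190 tested genes fell and 2075 rose.

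**Figure D3:**
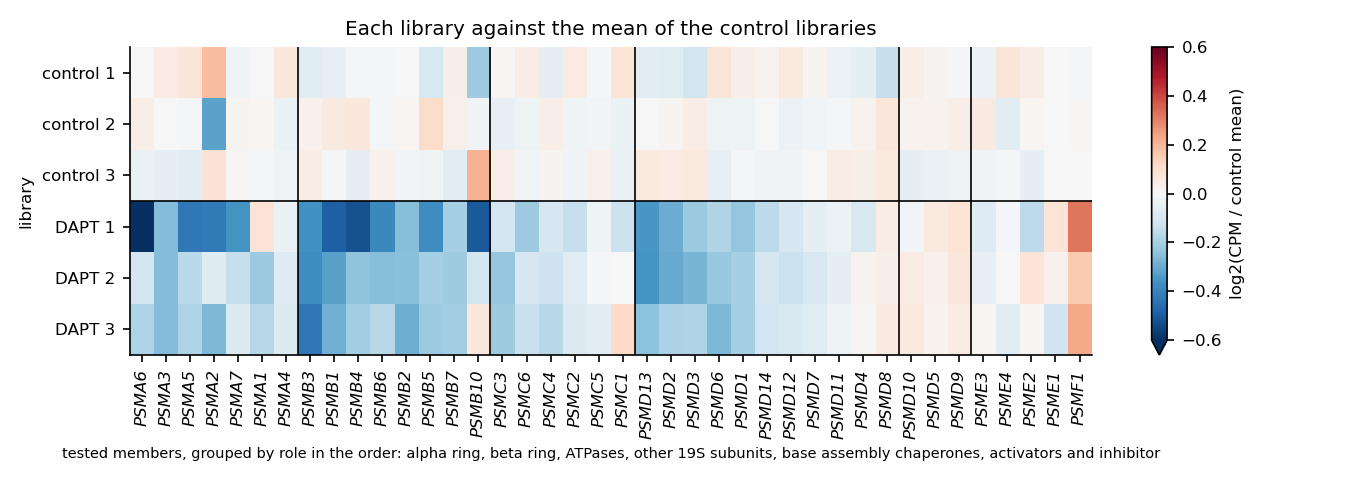
The log2 ratio of each library's CPM to the control mean for the 40 tested genes, in columns by role, with blue for lower and red for higher; the scale stops at -0.6. The beta ring is blue in all 3 DAPT libraries except for *PSMB10* in replicate 3, and the darkest cells are in DAPT replicate 1.

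Promoter sequence is shown for *PSMB3*, the gene with the largest decrease, for *PSMB5*, which encodes the chymotrypsin-like protease that proteasome inhibitors bind, and for *PSMF1*, the single member that rose. These are the 250 bases before the RefSeq start on GRCh38.p14, read 5′ to 3′ on the gene's strand, and capitals mark matches to TGANNNNGC, a loose form of the antioxidant response element, on either strand. *PSMB3* is on the plus strand at chr17:38752491-38752740, *PSMB5* on the minus strand at chr14:23035221-23035470 and *PSMF1* on the plus strand at chr20:1113013-1113262.
PSMB3: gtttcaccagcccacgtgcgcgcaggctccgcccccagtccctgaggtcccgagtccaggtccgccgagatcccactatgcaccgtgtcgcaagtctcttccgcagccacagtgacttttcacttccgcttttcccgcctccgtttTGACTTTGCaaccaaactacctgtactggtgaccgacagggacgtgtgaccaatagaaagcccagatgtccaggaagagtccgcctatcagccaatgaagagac
PSMB5: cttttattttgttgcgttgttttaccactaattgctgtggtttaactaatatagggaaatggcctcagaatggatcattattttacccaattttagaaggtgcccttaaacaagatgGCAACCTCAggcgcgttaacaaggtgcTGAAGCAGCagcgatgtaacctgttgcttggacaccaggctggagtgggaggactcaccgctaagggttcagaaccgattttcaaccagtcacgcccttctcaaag
PSMF1: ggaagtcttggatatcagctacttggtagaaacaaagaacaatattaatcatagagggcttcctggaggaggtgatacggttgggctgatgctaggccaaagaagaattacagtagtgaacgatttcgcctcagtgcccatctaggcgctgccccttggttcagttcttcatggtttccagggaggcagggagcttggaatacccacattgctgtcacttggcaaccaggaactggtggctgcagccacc

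*PSMB3* held 1 match and *PSMB5* held 2, while these letters were not in the *PSMF1* window. RefSeq windows of 250 bases before to 50 after the start were at hand for 37 of the 42 members, and not for *PSMA7*, *PSMB1*, *PSMB6*, *PSMB7* and *PSMD4*. TGANNNNGC was in 22 of the 37 windows (59.5%) and in 42.6% of 15843 windows of protein-coding genes. It was in 9 of 13 core windows and 13 of 24 cap windows. The stricter TGACNNNGC, every match of which is also a match to the looser form, was in 10 of 37 windows against 14.3% of all. 1 of these windows was in the core, that of *PSMB3* shown above, and 9 were in the caps. CCAAT, read by NF-Y, was in 17 of 37 (45.9%) against 36.4% of all. TGGGAA, which RBPJ, the DNA-binding partner of Notch, can read, was in 9 of 37 (24.3%) against 22.7% of all. All motifs were searched on both strands, and a match is a description of the letters, not a binding site.

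The alpha ring gates the core. 3 of its 7 tested genes fell, *PSMA3* by 0.26, *PSMA5* by 0.26 and *PSMA7* by 0.19 on the log2 scale, and none rose. Of all tested genes 18% fell and 17.2% rose. The call for *PSMA7* was lost without DAPT replicate 1, with an adjusted p of 0.0931 in edgeR's quasi-likelihood test. *PSMA6* had the lowest log2 fold change of the ring, with 35.2, 36.2 and 34.0 CPM in control and 18.97, 32.5 and 30.9 CPM in DAPT libraries. The groups did not overlap, but DAPT replicate 1 was far below the other DAPT libraries. The log2 fold change of -0.37 ± 0.20 (SE) did not pass, at an edgeR quasi-likelihood adjusted p of 0.231 after Benjamini-Hochberg adjustment. It was -0.15 without DAPT replicate 1, and *PSMA6* passed in edgeR without a filter on low counts (adjusted p = 0.0192) and in the fit that is not robust (adjusted p = 0.0443). *PSMA4* was nearest to no difference, with 394, 367 and 368 CPM in control and 366, 357 and 356 CPM in DAPT libraries. Its DAPT libraries lay just below the lowest control, and the log2 fold change was -0.07 ± 0.05 (adjusted p = 0.302, edgeR). *PSMA1* at -0.09 and *PSMA2* at -0.26 did not pass either. *PSMA8*, an alpha subunit of the testis, had 0 counts in all 6 libraries, which allows a level of up to 0.184 to 0.244 CPM at 3 counts per library, for counting error only.

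The beta ring holds the proteolytic sites, and 7 of its 8 tested genes fell, beside 18% of all tested genes. *PSMB3* (ENSG00000277791, GRCh38 chr17:38752741-38764225, plus strand), a beta subunit without a proteolytic site, showed the largest decrease of all members. It stood at 127, 136 and 138 CPM in control and at 104, 103 and 99.4 CPM in DAPT libraries. The libraries of each group were close together and the groups were well apart. Its log2 fold change was -0.39 ± 0.05 (95% interval -0.49 to -0.28, adjusted p = 6.08e-06, edgeR quasi-likelihood test), a decrease of 23.5%. The genes of the 3 catalytic subunits fell too. *PSMB5* (chymotrypsin-like) fell by 0.26, *PSMB6* (caspase-like) by 0.27 and *PSMB7* (trypsin-like) by 0.21. The structural subunit genes *PSMB1*, *PSMB2* and *PSMB4* fell by 0.37, 0.27 and 0.32. These 7 calls held with each library left out in turn.

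*PSMB10*, the trypsin-like subunit of the immunoproteasome, was the tested beta gene with the smallest difference. It was at 10.3, 11.8 and 13.8 CPM in control and at 8.44, 11.1 and 12.5 CPM in DAPT libraries. The groups overlapped, and the log2 fold change of -0.16 ± 0.14 did not pass (adjusted p = 0.393, edgeR). With 1 library left out it ranged from -0.29 without DAPT replicate 3 to -0.0089 without DAPT replicate 1. Its 95% interval, -0.45 to 0.13, includes the decreases of the other beta genes. *PSMB11*, the thymus form, had 0 counts in all libraries. The immune subunits left out by the rule were also not called, with log2 fold changes of -0.07 for *PSMB8* and 0.08 for *PSMB9*.

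Genes with same-strand neighbours limit what the low core members show. *PSMA1*, *PSMA2*, *PSMA6*, *PSMB10* and *PSMD9* share 60.0% to 100% of the coding bases of their canonical transcript with another annotated gene on the same strand, and reads that overlap both genes were not counted. The overlapping genes themselves had between 0 and 94 reads over all libraries. When these members were left out, 10 of 11 tested core genes fell, *PSMA4* being the exception, and 7 of 24 cap genes fell. Of all tested genes, to which this exclusion was not applied, 18% fell. The exclusion was added after the data had been seen, and none of the members left out was called in the fit of all libraries. The 42 pseudogenes of these genes in the annotation held 1070 reads in all, 0.213% of the reads of the members.

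The ATPases of the cap unfold substrates. 2 of 6 genes fell and none rose, beside 18% of all tested genes that fell and 17.2% that rose. *PSMC3* was the lowest, with 128, 123 and 130 CPM in control and 117, 108 and 110 CPM in DAPT libraries. All DAPT libraries lay below the controls, by a small step. Its log2 fold change was -0.18 ± 0.05 (adjusted p = 0.00876, edgeR), and the call was lost without DAPT replicate 2. *PSMC6* fell by 0.15, a call that was lost in 2 of the 6 fits with a library left out. *PSMC1* was nearest to 0, with 73.2, 67.6 and 67.4 CPM in control and 63.5, 69.4 and 75.1 CPM in DAPT libraries. The groups overlapped fully, and the log2 fold change was -0.01 ± 0.06, with a 95% interval of -0.14 to 0.13. 76.1% of its exon bases are covered by *NRDE2* on the opposite strand, and the counting used strand. *PSMC2*, *PSMC4* and *PSMC5* were at -0.10, -0.13 and -0.04 and were not called, though *PSMC4* passed without control replicate 1.

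5 of the 11 other 19S subunit genes fell and none rose, where 18% of all tested genes fell and 17.2% rose. *PSMD13*, a scaffold subunit of the lid, was at 108, 114 and 118 CPM in control and at 89.2, 88.9 and 95.6 CPM in DAPT libraries. The groups were well apart, and the log2 fold change was -0.31 ± 0.05 (adjusted p = 0.000111, edgeR). *PSMD1* and *PSMD2*, the largest scaffold proteins of the base, fell by 0.21 and 0.26. *PSMD3* and *PSMD6*, further lid subunits, fell by 0.23 and 0.22. *PSMD14*, the deubiquitinating enzyme of the lid, was at -0.12 and did not pass (adjusted p = 0.0594, edgeR), and the ubiquitin receptor *PSMD4* was at -0.02. *PSMD8*, a lid subunit, had the highest value, with 73.3, 84.6 and 84.1 CPM in control and 83.1, 82.6 and 83.8 CPM in DAPT libraries. Control replicate 1 was the low library, and the other controls lay just above the DAPT libraries. The log2 fold change of 0.05 ± 0.06 turned to -0.02 without control replicate 1, and neither passed. *PSMD7*, *PSMD11* and *PSMD12*, also of the lid, were at -0.07, -0.04 and -0.11 and were not called.

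None of the 3 chaperones that assemble the base was called, where 18% of all tested genes fell and 17.2% rose. *PSMD9* was at 10.4, 10.8 and 10.3 CPM in control and at 11.1, 10.97 and 10.8 CPM in DAPT libraries. Its DAPT libraries lay above the controls by less than the error, with a log2 fold change of 0.07 ± 0.10. *PSMD10*, also known as gankyrin, was at 82.0, 81.0 and 76.9 CPM in control and at 78.9, 82.6 and 83.4 CPM in DAPT libraries, and the groups overlapped. Its log2 fold change was 0.03 ± 0.05, as was that of *PSMD5*, 0.03 ± 0.05.

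*PSMF1*, which encodes PI31, a protein that binds the core particle and inhibits it in vitro, was the member that rose. It was at 174, 176 and 175 CPM in control and at 219, 195 and 205 CPM in DAPT libraries. The controls were nearly equal, and all DAPT libraries lay above them. The log2 fold change was 0.24 ± 0.05 (adjusted p = 0.000983, edgeR), an increase of 17.9%, and the call held with each library left out. The activators that open the core without ATP were not called. *PSME3*, the nuclear activator PA28γ, was at 200, 213 and 203 CPM in control and at 194, 199 and 207 CPM in DAPT libraries, with overlapping groups and a log2 fold change of -0.04 ± 0.05. *PSME1* and *PSME2*, which form the interferon-inducible PA28, were at -0.0014 and -0.02, and *PSME4*, the nuclear activator PA200, was at -0.03. The signs of these 4 activator genes turned when libraries were scaled by their total counts alone.

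Levels of different genes were compared as CPM per kilobase of exon. In control, *PSMA7* was the highest at 191, 197 and 195 CPM per kilobase, followed by *PSME1* at 141, 141 and 141 and *PSMA3* at 143, 138 and 133, and the last 2 did not differ beyond their spread. In DAPT libraries *PSMA7* was at 152, 177 and 184 CPM per kilobase and stayed above *PSMA3* at 115 in each of the 3. *PSMD9* was the lowest tested member, at 1.19, 1.23 and 1.17 CPM per kilobase in control and 1.27, 1.25 and 1.23 in DAPT libraries. The 4 lowest members were *PSMD9*, *PSMA2*, *PSMA6* and *PSMB10*, all among those that share coding bases with a gene on their strand. Per kilobase of the canonical transcript instead of all annotated exons, *PSMA3* was the highest at 449 CPM per kilobase in control and *PSMD9* was still the lowest at 3.84. The order among the members therefore depends on the length used.

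**Figure D4:**
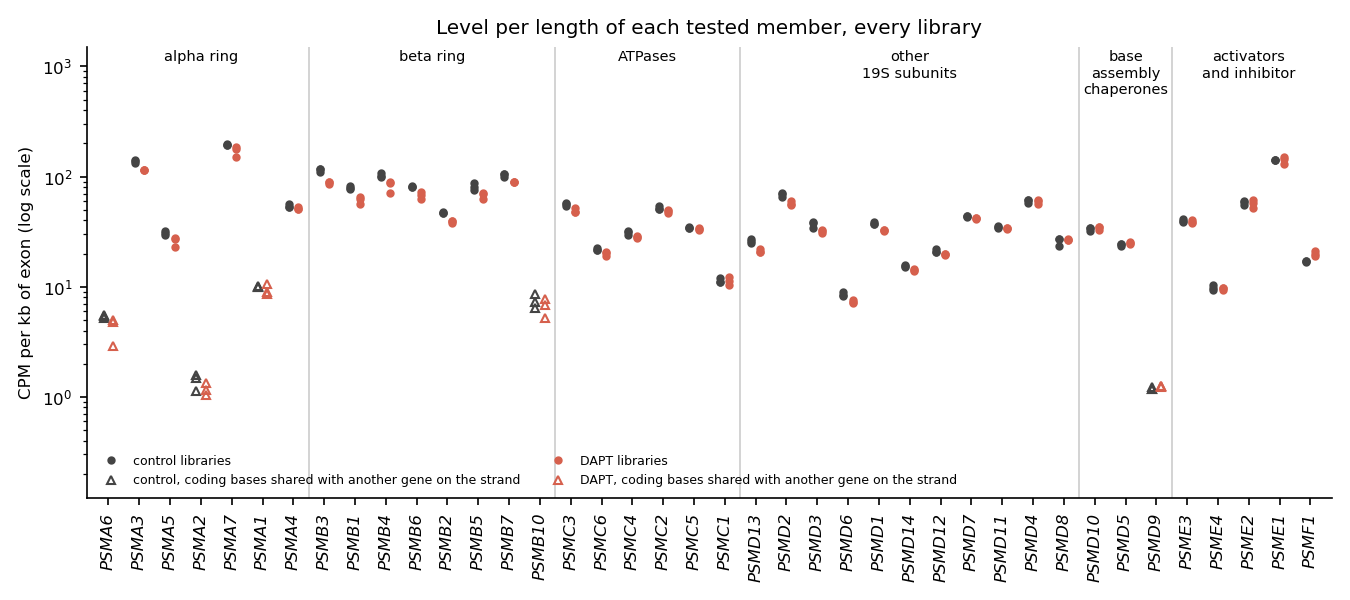
CPM per kilobase of exon in each library for the 40 tested genes, on a log axis, with control in grey and DAPT in red. Open triangles mark the 5 genes that share coding bases with another gene on their strand, and 4 of these are the lowest members.

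The other genes of the pathway were described as lists, beside the 18% of all tested genes that fell and the 17.2% that rose. Of 9 further proteasome components, which include the ubiquitin receptor *ADRM1* and the deubiquitinating enzyme *USP14*, 2 fell and none rose. These were *SEM1*, a small lid subunit, at -0.20 and *UCHL5*, a deubiquitinating enzyme of the cap, at -0.16. A count of 2 in 9 is near the share of all tested genes that fell. Of 5 chaperones that assemble the core particle, 2 fell, *PSMG1* at -0.23 and *PSMG3* at -0.20, and none rose. All 5 had log2 fold changes below 0, with a median of -0.20. *POMP*, which matures the core, was at 197, 180 and 172 CPM in control and at 122, 167 and 153 CPM in DAPT libraries. Its groups did not overlap, but the log2 fold change of -0.31 ± 0.12 did not pass (adjusted p = 0.0806, edgeR). *PAAF1*, which binds an ATPase during cap assembly, was at 0.0013.

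Of 13 genes for the transcriptional control of proteasome genes, 5 rose and 1 fell, with a median log2 fold change of 0.11. Over all tested genes, 17.2% rose and 18% fell. *NFE2L1* itself rose, from 508, 515 and 522 CPM in control to 681, 651 and 649 CPM in DAPT libraries. The groups were well apart, and the log2 fold change was 0.36 ± 0.05 (adjusted p = 3.27e-06, edgeR), opposite in sign to the 15 core genes. The others that rose act on the NRF1 protein in its processing or turnover, namely *SYVN1* (0.30) and *BTRC* (0.18), subunits of ubiquitin ligases, *NGLY1* (0.29), which removes its sugars, and *STT3A* (0.22), a catalytic subunit of the enzyme that attaches sugars in the endoplasmic reticulum. *NFE2L3*, a relative of *NFE2L1*, fell by 0.41. *NFE2L2*, which encodes NRF2, was at 0.11 and was not called. Also not called were *DDI2* (-0.02), *FBXW7* (0.07), *STT3B* (-0.11), *MAFF* (0.0042), *MAFG* (0.15) and *MAFK* (-0.01). These are RNA levels, and the amount and processing of the NRF1 protein were not measured.

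**Figure D5:**
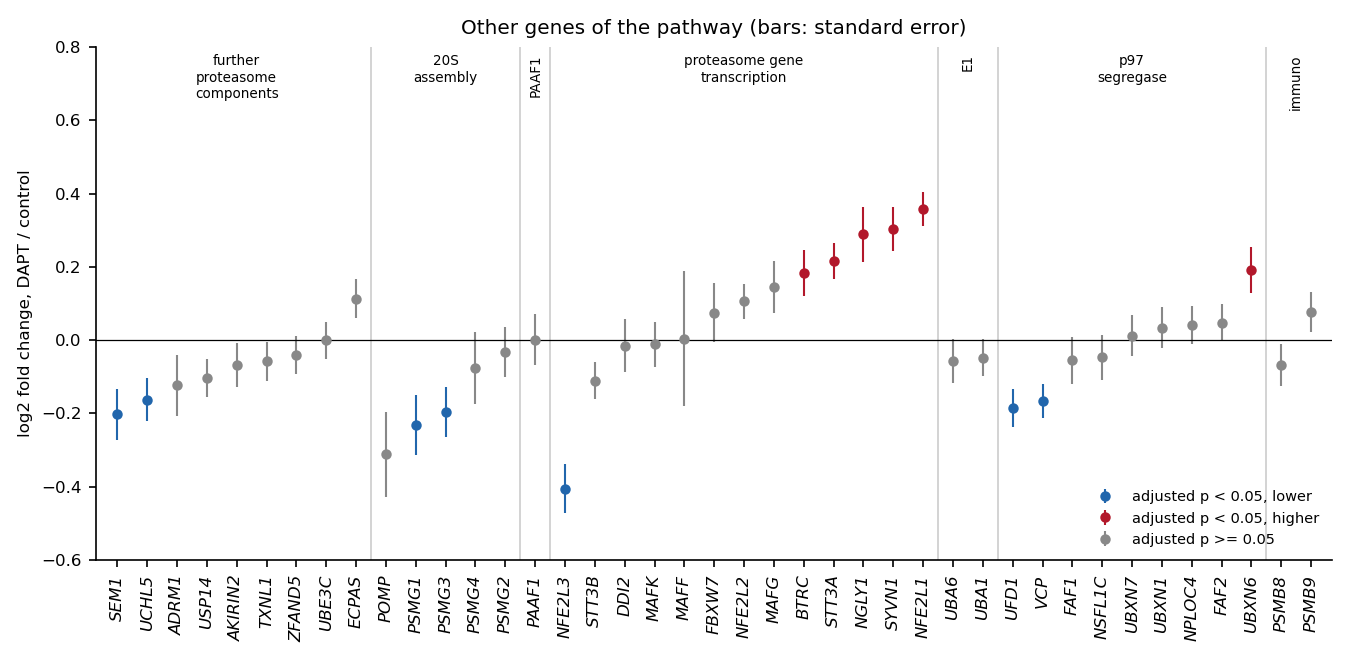
The log2 fold change, DAPT over control, with its standard error for tested genes of 6 other pathway lists and for *PSMB8* and *PSMB9* (right end), coloured by the call at an adjusted p of 0.05. *NFE2L1* at 0.36 is the highest and *NFE2L3* at -0.41 the lowest.

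Among genes that encode ubiquitin, *RPS27A*, which encodes it fused to a ribosomal protein, fell by 0.27, and the polyubiquitin gene *UBB* fell by 0.16. The ubiquitin-activating enzymes *UBA1* and *UBA6* were not called. Of 9 genes of the p97 segregase, which extracts ubiquitinated proteins from complexes and membranes, *UFD1* (-0.19) and *VCP* (-0.17), p97 itself, fell and *UBXN6* (0.19) rose. The median of the p97 list was 0.01, near that of all tested genes, of which 18% fell and 17.2% rose.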

How the data were processed

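Total RNA was sequenced as single-end reads after a directional mRNA library kit. Per the authors, Trim Galore trimmed the reads, HISAT2 aligned them to GRCh38, and edgeR was used for differential expression. The paper does not name the counting tool. The headers of the deposited counts name featureCounts 1.6.3, run by strand on genes of Ensembl release 96. By default it leaves out reads that overlap several genes. The authors deposited raw counts and the exon length of each gene for each library, with no normalization. The submitters' processing notes also list FastQC, bcl2fastq 2.19, HTSeq and DESeq2. Identifiers were matched to GENCODE release 44 for 58472 of 58884 genes, and coordinates are those of the count tables.

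All 6 libraries entered 1 fit over the whole table in edgeR 4.0.16 (R 4.3.3), with filterByExpr (minimum count 10), TMM factors, a robust quasi-likelihood F test and p-values adjusted by Benjamini-Hochberg across the 15001 genes tested (threshold 0.05). CPM used the library sizes of the tested genes times the TMM factors. Depth limits precision for genes with few reads. The members and the lists of other genes were chosen with earlier results of these data known. Some genes of these lists are not reported here. Values in every library are given for the highest and lowest log2 fold change of each role, for members not tested and for the extremes per length, and for some list genes chosen after their values were seen. Alternatives were DESeq2 1.42.0, limma 3.58.1 (voom), the likelihood ratio test, other scalings and filters, a fit that is not robust, a replicate block and each library left out. The procedure was also run on simulated counts with 200 genes changed, and the outcome is not given here. Such a run does not address whether the replicates were separate cultures.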

Additional observations from a re-analysis of the deposited data

How the results depend on the processing

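The count of core genes that fell was 9 to 11 and of cap genes 6 to 8 under every alternative, with 0 and 1 that rose. With DESeq2, the likelihood ratio test, voom, other size factors or at least 10 counts in every library, all 40 members kept their direction and their side of the threshold. Library size alone moved all genes up (median 0.06 against 0.01; 2156 fell and 3445 rose, against 2707 and 2574). Under it the calls of *PSMA7* and *PSMC6* were lost, the cap median was 0.0077, and the log2 ratios of the summed levels were -0.19 for the core and -0.034 for the caps, against -0.23 and -0.08. It turned 8 uncalled members: *PSMC1* 0.041, *PSMC5* 0.011, *PSMD4* 0.026, *PSMD11* 0.0077, *PSME1* 0.045, *PSME2* 0.027, *PSME3* 0.0083 and *PSME4* 0.020. Without a filter *PSME1* was at 0.000153, and *PSMA6* was called, as it was in the fit that is not robust. With each library left out, the cap median was -0.064 to -0.044, and uncalled members that turned ranged from -0.064 to 0.056 (*PSMC1*), -0.047 to 0.016 (*PSMD4*), -0.019 to 0.080 (*PSMD8*), -0.0031 to 0.053 (*PSMD10*), -0.044 to 0.055 (*PSME1*), -0.073 to 0.046 (*PSME2*) and -0.062 to 0.014 (*PSME4*). The cause was not tested.

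For each replicate number, the control and the DAPT library correlated at only 0.00382 to 0.0252 once group averages were taken out. Even so, 4 of 6 libraries correlated best with their own number. With 3 libraries per group, these values cannot decide whether the numbers pair the libraries. The replicate block gave 10 and 7 genes that fell, 0 and 1 that rose, and medians of -0.26 and -0.04, and changed no call of a member.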
